A study of Mus musculus with 12 samples.

Results

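The Notch pathway genes Hey1, Hey2, Heyl, Hes1, Rbpj, Notch1, Notch2, Dll1, Dll4 and Jag1 were followed through 12 lists of ATAC-seq summits from mouse embryoid bodies with and without Foxk1. In ATAC-seq, Tn5 transposase cuts and tags DNA where chromatin is open, and a summit is the point of highest signal in a called peak. A summit was assigned to one of the 10 genes when the nearest end of any protein-coding gene within 100 kb belonged to it, or when it lay inside the gene body. Of 386209 summits on chromosomes 1 to 19 and X, 360 met this rule. Joined over the 12 full lists wherever neighbours lay within 250 bp, they formed 93 regions of 104822. The rule uses positions alone, with no score and no genotype, while the 10 genes themselves were picked with earlier results of these data known.

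Notch signalling passes between touching cells. Ligands of the Delta and Jagged families on one cell engage a Notch receptor on the next, the receptor is cleaved, and its intracellular part enters the nucleus and joins the DNA-binding protein encoded by Rbpj. The complex turns on genes of the Hes and Hey families, which encode basic helix-loop-helix repressors. In the embryo the pathway takes part in somite formation, in the specification of arteries and in the development of the heart, where Hey2 is known as a gene of ventricular muscle.

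Foxk1 knockout (KO) embryoid bodies were profiled at days 3, 5 and 10. Their controls came from the iHA-Foxk1 line at the first 2 time points, while the day 10 controls are labelled Control only. Each of the 6 groups held 2 libraries, every library carried the label NoDox, and all came from stem cells grown on fibroblast feeders and differentiated in mesodermal medium. No label describes the knockout allele, its deleted part or the number of clones, and none ties the 2 libraries of a group to separate cultures. Their spread may therefore be technical.

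List length was the only measure of depth. It ran from 42129 to 59006 summits at days 3 and 5, except for the iHA-Foxk1 day 5 libraries (14519 and 34040), and at day 10 it was 4028 and 4755 in KO against 10548 and 7764 in Control. Peak names in both KO day 5 lists carry the day tag 7 in place of 5, so genotype and a difference in harvest day cannot be told apart there. Names in the day 10 lists lack a duplicate-removal tag that the others carry, so time and handling of duplicates cannot be told apart between day 10 and earlier days. Open chromatin does not test the knockout: 5 of 6 KO and 4 of 6 control libraries had a summit within 1 kb of the lower end of Foxk1. Of 31 marker genes of pluripotent, streak, cardiac, endothelial, neural and feeder cells, 20 to 22 had a summit within 1 kb of a gene end in the day 3 libraries, while at day 10 none did in either KO library, against 2 and 1 in the Control libraries. Gata4, Tbx5, Cdh5, Col3a1 and Postn had none in any library.

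Promoter sequences from RefSeq (GRCm38.p6, the assembly of mm10) were available for 7 of the 10 genes, as 9 windows of the 250 bases before an annotated start. Below are the 4 that lie before the outermost start and held a summit in 6 or more libraries, because they show where the gene-end signal of these genes sat. Each runs 5′ to 3′ on the gene's strand and ends with the base before the start. In Hey2 (chr10:30842784-30843033, minus strand) the capitals mark the core sequence of an RBPJ site, and the summits of 10 libraries lay 45 to 225 bases before the start. In Notch1 (chr2:26503823-26504072, minus strand), Notch2 (chr3:98013288-98013537, plus strand) and Dll4 (chr2:119325534-119325783, plus strand) the capitals mark the bases between the outermost of the summits, which came from 7, 7 and 6 libraries.
Hey2: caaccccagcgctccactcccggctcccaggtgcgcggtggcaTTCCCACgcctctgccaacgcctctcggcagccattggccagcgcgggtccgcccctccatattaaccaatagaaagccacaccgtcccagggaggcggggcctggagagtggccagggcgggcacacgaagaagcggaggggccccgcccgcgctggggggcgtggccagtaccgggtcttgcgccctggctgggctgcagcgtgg
Notch1: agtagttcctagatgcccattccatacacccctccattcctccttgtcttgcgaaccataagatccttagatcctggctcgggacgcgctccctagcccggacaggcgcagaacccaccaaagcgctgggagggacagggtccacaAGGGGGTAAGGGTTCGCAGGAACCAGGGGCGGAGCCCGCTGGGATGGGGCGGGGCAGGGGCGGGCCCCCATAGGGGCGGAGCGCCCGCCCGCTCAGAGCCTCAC
Notch2: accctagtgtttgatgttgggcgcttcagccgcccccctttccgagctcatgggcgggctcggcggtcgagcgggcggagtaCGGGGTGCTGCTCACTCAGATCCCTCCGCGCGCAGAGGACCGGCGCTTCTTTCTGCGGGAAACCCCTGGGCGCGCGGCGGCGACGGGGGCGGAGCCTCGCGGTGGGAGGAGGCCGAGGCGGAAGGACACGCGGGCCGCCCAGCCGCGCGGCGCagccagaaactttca
Dll4: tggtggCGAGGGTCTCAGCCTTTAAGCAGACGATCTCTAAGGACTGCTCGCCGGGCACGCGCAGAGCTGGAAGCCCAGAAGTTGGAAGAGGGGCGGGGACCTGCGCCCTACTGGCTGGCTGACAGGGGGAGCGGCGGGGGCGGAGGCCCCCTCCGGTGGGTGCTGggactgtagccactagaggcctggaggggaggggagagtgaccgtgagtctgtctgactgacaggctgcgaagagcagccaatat

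The RBPJ core was searched as GTGGGAA on both strands, that is as GTGGGAA or TTCCCAC. It was found in 1 of the 9 windows, that of Hey2, against 5.42% of all 32851 promoter windows. The Hey2 match began 207 bases before the start, within the span of its summits, and a further match lay across the start itself. With the shorter core TGGGAA, 3 of the 9 windows and 21.6% of all windows held a match. The 3 were the window of Hey2 and both windows of Rbpj, which overlap and share a match. A forkhead core, GTAAACA or TGTTTAC, was in none of the 9 windows and in 3.17% of all windows.

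Summits were spread unevenly over the 10 genes. Hes1 and Rbpj had the most, with 22 and 21 of the 93 regions, followed by Notch1 and Jag1 with 12 each. Hey2 and Dll4 had 5 regions, and Hey1, Heyl, Notch2 and Dll1 had 4. Of the 93 regions, 28% were found in 1 library alone (34.3% of all regions) and 6.45% in all 8 libraries of days 3 and 5 (10.1% of all regions). Gene ends, meaning a position within 1 kb of one, held 17.2% of them (16.8% of all regions). Per 10000 summits the 10 genes had 7.97 and 8.04 in KO against 9.16 and 9.24 in iHA-Foxk1 at day 3, 11 and 11.4 in KO against 6.2 and 9.69 in iHA-Foxk1 at day 5, and 9.93 and 12.6 in KO against 11.4 and 7.73 in Control at day 10. KO was lower than iHA-Foxk1 at day 3 and higher at day 5, where one iHA-Foxk1 list held 14519 summits, and the groups overlapped at day 10. How often other genes separate in this way was not computed.

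**Figure D1:**
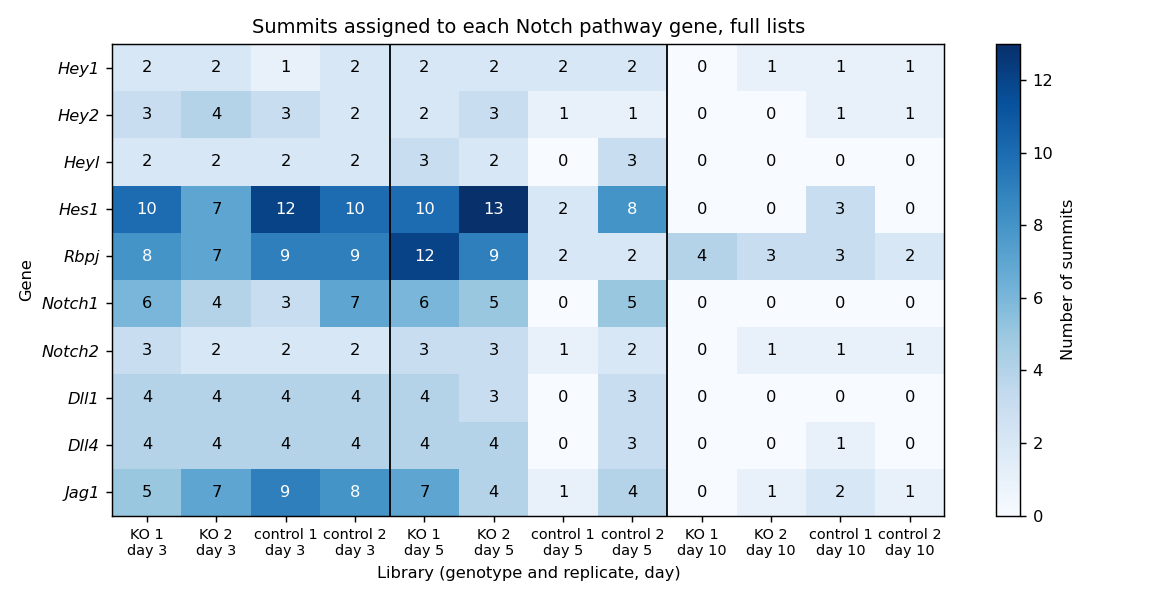
Number of summits assigned to each gene (rows) in the full list of each library (columns, with genotype, replicate and day). Hes1 and Rbpj had the most, 7 to 13 in every library of day 3 and in the KO libraries of day 5, while at day 10 no gene had more than 4. List lengths differed between libraries.

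Among the target genes, the start of Hey2 ranked in the best few percent of the day 3 lists. Ranks are given as a percentage of the library's own list, with the highest-scoring summit near 0. For regions called between groups they are percentages of the N best summits of each library, N being the shortest list of the comparison. At day 3 the best summit within 1 kb of the start ranked at 1.37% and 0.834% in KO and at 0.957% and 1.07% in iHA-Foxk1. At day 5 it ranked at 1.17% and 3.12% in KO against 30.2% and 5.46% in iHA-Foxk1, where the lower-placed library was the one with 14519 summits. All 8 libraries had it, and ranks from lists of different length do not show a change.

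At day 10 the Hey2 start had a summit in Control and not in KO. Neither KO library had a summit there, while it stood at rank 572 of 10548 and 719 of 7764 in the Control libraries. The nearest KO summits lay 39736 and 224358 bp away. When each library was cut to its 4028 best summits, this region (chromosome 10, 30842828 to 30842896, 79 bp from the gene) was control-only, meaning that both control libraries and neither KO library held a summit. At that day 11.8% of all 3634 reproducible regions, those found in both libraries of at least 1 group, were control-only, and so were 15% of the 2284 within 1 kb of a gene end, while 2.89% of those were KO-only. Among gene-end regions, 171 were found in both Control libraries with a mean rank there at least as good as that of Hey2. Of these, 2 (1.17%) had no summit among the 4028 best of either KO library, namely Hey2 and D3Ertd751e. Hey2 set this cutoff and is counted in both numbers. The share was computed after the value of Hey2 was seen, so it does not test that gene. The KO lists of that day also had none of the marker gene ends, the cardiac ones included (0 and 0 of 6 in KO against 1 and 1 in Control), and their part in this result was not tested. The call held under all 5 other settings of N, merging and absence. In bulk samples, fewer cells with an open site and less opening per cell cannot be told apart.

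Hey1, a relative of Hey2 that is expressed in vessels and atrial muscle, had a summit within 1 kb of its upper end in 11 of 12 libraries. At day 3 it ranked at 3.5% and 4.93% in KO and at 12.8% and 11.4% in iHA-Foxk1, and at day 5 at 2.38% and 7.18% in KO and at 64.4% and 5.28% in iHA-Foxk1. At day 10 KO replicate 1 had none and KO replicate 2 had one at 82.9%, against 24.7% and 14.8% in the Control libraries. The region at 8667268 to 8667336 of chromosome 3 was control-only at day 10. A KO summit lay 316 bp away in replicate 2, and the call ended when N was divided by 2 or when a KO summit within 1 kb counted as presence. Heyl, the remaining member of the Hey family, had a summit within 1 kb of its lower end in 7 libraries, at 36.7% and 50.9% in KO and 61.1% and 55% in iHA-Foxk1 at day 3. At day 10 it had none in any library.

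Hes1, a repressor that oscillates in many progenitor cells, had the widest set of regions. Full lists held 10 and 7 summits in KO against 12 and 10 in iHA-Foxk1 at day 3, 10 and 13 in KO against 2 and 8 in iHA-Foxk1 at day 5, and none in KO against 3 and 0 in Control at day 10. The day 10 summits were all in Control replicate 1. The best-ranked region of day 3 lay 56378 bp from the gene (chromosome 16, 30008847 to 30009112) and was found in all 8 libraries of days 3 and 5, at 11.7% and 15.1% in KO and 24.4% and 21.1% in iHA-Foxk1 at day 3. A region 88182 bp from the gene on the other side (30155784 to 30156172) was also in all 8. The site at the lower gene end ranked at 36.4% and 50.1% in KO and at 78.9% and 57.7% in iHA-Foxk1 at day 3. Both regions called at Hes1 on day 3 were control-only, as were 9.57% of all regions. One lay 2011 bp from the gene (30063280 to 30063412), with KO summits 742 and 739 bp away, and the other 77899 bp from it (30145582 to 30145808), with none nearer than 10061 bp. Among the N best summits they ranked low, at 85.6% and 82.3% for the first and 93% and 98.6% for the second in the iHA-Foxk1 libraries. Neither was called when N was divided by 2 or when summits were merged at 100 bp, and the first was also lost when a KO summit within 1 kb counted as presence.

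**Figure D2:**
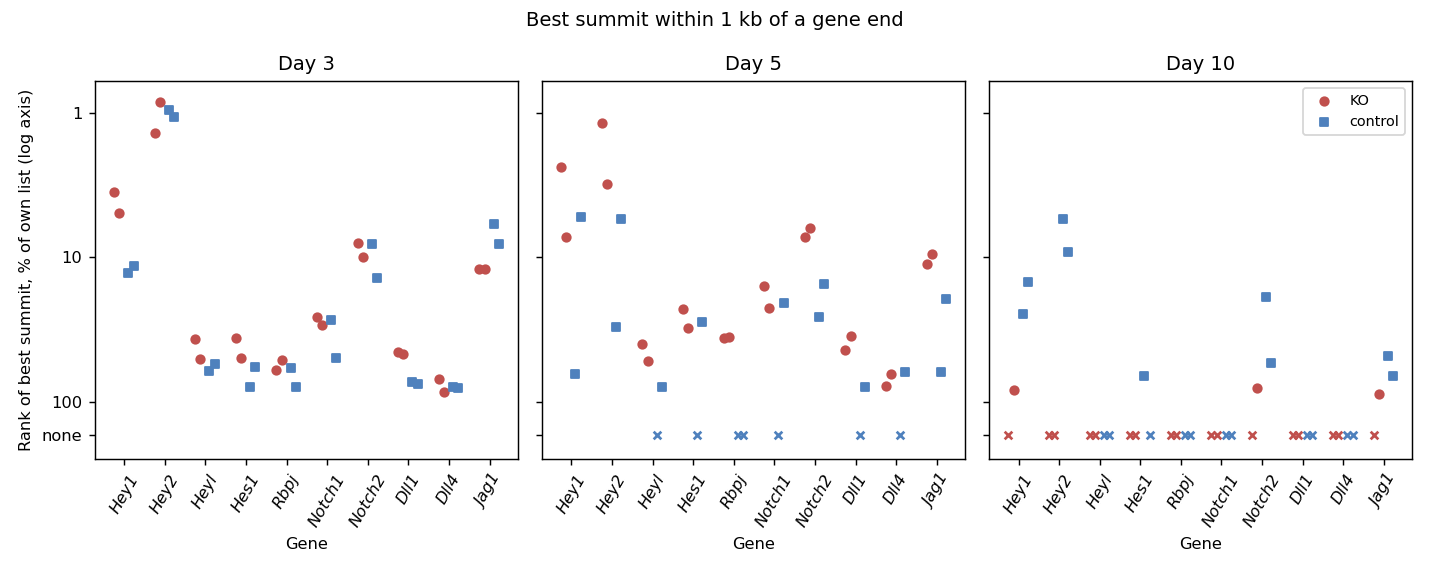
Rank of the best summit within 1 kb of the more often marked end of each gene, as a percentage of the library's own list on a log axis with the best ranks at the top, for KO (circles) and control (squares) libraries at days 3, 5 and 10. Crosses mark libraries with no summit there. Hey2 stood near 1% in all 4 libraries of day 3, and at day 10 it was present in Control alone.

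Rbpj, the DNA-binding partner of the cleaved receptor, was the only one of the 10 genes with a summit in every library. Its full lists held 8 and 7 summits in KO against 9 and 9 in iHA-Foxk1 at day 3, 12 and 9 in KO against 2 and 2 in iHA-Foxk1 at day 5, and 4 and 3 in KO against 3 and 2 in Control at day 10. Its best-ranked summits of days 3 and 5 lay inside the gene, in a pair of sites about 1 kb apart. The site nearer the outermost start, called the outer site here (chromosome 5, 53589289 to 53589443, 33587 bp into the gene), was found in 10 libraries. The inner site (53590335 to 53590436) was found in 8 and lies in the 250 bases before an internal start of Rbpj.

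The libraries differed in which of the pair held a summit. At day 3 KO replicate 1 had the inner site alone and KO replicate 2 the outer site alone, against the outer site alone in iHA-Foxk1 replicate 1 and both in replicate 2. At day 5 both KO libraries had the outer site alone, against both sites in iHA-Foxk1 replicate 1 and the inner site alone in replicate 2. At day 10 all 4 libraries had both. The inner site was thus control-only at day 5 (24.5% and 24% of the 14519 best summits in iHA-Foxk1), where 7.97% of all 14273 reproducible regions were. KO summits lay 934 and 1035 bp away, and the call ended when a KO summit within 1 kb counted as presence. The lists hold 1 summit per peak and no widths, so whether both sites belonged to 1 peak was not tested. At the outermost start, a summit was present in all 4 libraries of day 3 and in both KO libraries of day 5, but in neither iHA-Foxk1 library of day 5 and in no library of day 10. The day 5 KO summits there stood at rank 17625 and 15096, beyond the 14519 summits of iHA-Foxk1 replicate 1. The list of iHA-Foxk1 replicate 2, with 34040 summits, ran past these ranks and also held none there.

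At day 10 another site inside Rbpj (53583299 to 53583384) was KO-only, as were 9.88% of all regions. Its KO summits ranked at 94.7% and 71.1%, near the bottom of the compared lists, and a summit of Control replicate 1 lay 41 bp away below the compared ranks. The call ended under 4 of the 5 other settings, full lists among them.

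Of the receptors, Notch2 was the better placed. Its start had a summit in 11 of 12 libraries, at 7.95% and 10% in KO and 8.03% and 13.9% in iHA-Foxk1 at day 3, and at 7.28% and 6.29% in KO and 25.9% and 15.4% in iHA-Foxk1 at day 5. At day 10 KO replicate 1 had none and KO replicate 2 one at 81%, against 18.7% and 54.2% in the Control libraries. Notch1, the receptor of somites and arteries, had a summit at its start in 7 libraries, at 26.1% and 29.5% in KO and 27% and 50.2% in iHA-Foxk1 at day 3. At day 5 it ranked at 15.7% and 22.6% in KO, while iHA-Foxk1 replicate 1 had none and replicate 2 had one at 20.7%. No region of either receptor was called between genotypes on any day.

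Among the ligands, Dll1, the Delta ligand of the presomitic mesoderm and of neural progenitors, had a pair of sites just inside the gene. At the site nearer the outermost start, the KO summits lay 904 and 983 bp into the gene at day 3 and 662 and 881 bp at day 5. The iHA-Foxk1 summits of this site lay 469 and 443 bp into the gene at day 3 and, in replicate 2 at day 5, 463 bp. Replicate 1 of iHA-Foxk1 at day 5, the shortest list of that day, had none. At this site the 4 KO positions lay farther in than the 3 iHA-Foxk1 positions. The site was picked after its values were seen, and how many other sites separate in this way was not computed. At the next site the genotypes overlapped, with KO summits 2087 and 1912 bp into the gene at day 3 and 1957 and 1962 bp at day 5, against iHA-Foxk1 summits at 1973 and 1853 bp at day 3. Summits of 3 KO libraries fell in the window before an internal start of Dll1, which held no iHA-Foxk1 summit.

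At day 3 the first site gave a KO-only region (chromosome 17, 15375949 to 15376028, ranked at 49.9% and 46.9% of the N best in KO), as were 9.77% of all regions, and a control-only region (15376463 to 15376489, ranked at 73.7% and 76.9% of the N best in iHA-Foxk1). The iHA-Foxk1 summits nearest the KO-only region lay 435 and 461 bp away, and the KO summits nearest the control-only region 435 and 514 bp away. Neither call held once such a summit within 1 kb counted as presence. Another region of Dll1, 3926 bp before the start, was found in 7 of the 8 libraries of days 3 and 5. At day 10 no library had a summit assigned to Dll1.

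**Figure D3:**
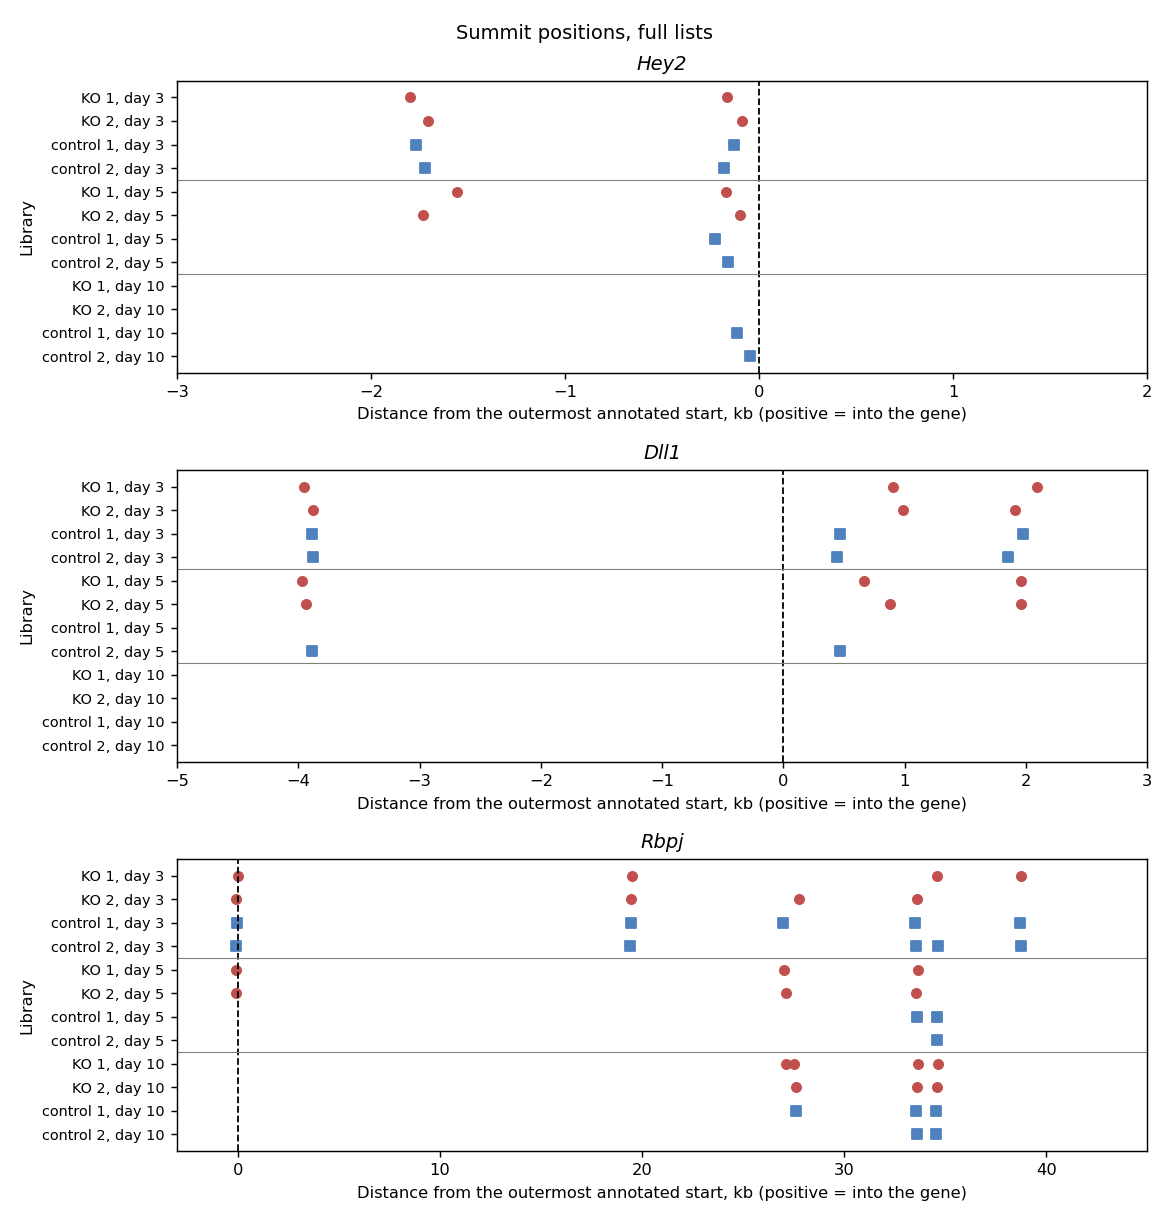
Position of the summits of the full lists around Hey2, Dll1 and Rbpj within the plotted range, in kb from the outermost annotated start, with 1 row per library (KO circles, control squares). At Hey2 the day 10 KO rows hold no summit in the plotted range. At the first site inside Dll1 the KO summits lie 662 to 983 bp into the gene and the iHA-Foxk1 summits 443 to 469 bp. That site was picked after its values were seen, and iHA-Foxk1 replicate 1 of day 5 had no summit there. At Rbpj the libraries of days 3 and 5 differ in which of the sites 33587 and 34606 bp into the gene hold a summit. Both are held by iHA-Foxk1 replicate 2 of day 3 and replicate 1 of day 5.

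Jag1, the Jagged ligand of arteries and the heart valves, had a region before its start (chromosome 2, 137116577 to 137117538) in 11 libraries. Within 1 kb of the start it ranked at 12% and 12% in KO and at 5.85% and 8.09% in iHA-Foxk1 at day 3, at 11.1% and 9.43% in KO and 61.9% and 19.6% in iHA-Foxk1 at day 5, and at day 10 was absent in KO replicate 1 and at 89.1% in replicate 2, against 48.6% and 66.1% in Control. At day 3 a region 94771 bp from the gene (137211271 to 137211312) was control-only, at 39% and 28.4% of the N best in iHA-Foxk1, with no KO summit nearer than 6638 bp. The call held under all 5 other settings, while at day 5 KO replicate 1 had a summit in this region at 72.7% and no iHA-Foxk1 library did. Dll4, the Delta ligand of endothelial tip cells and arteries, had 4 summits in each of the 4 libraries of day 3. Its best-placed region lay 2405 bp past the end opposite the start (119337998 to 119338145), at 18.1% and 28.8% in KO and 24.2% and 18.1% in iHA-Foxk1, and no region of Dll4 was called.

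Read against the whole genome, the control-only share of these regions was near that of all regions at days 3 and 5. The KO-only share was lower, resting on 2 of 44 and 0 of 11 regions, and this depended on the setting. With N divided by 2 it was higher at day 3 (4 of 19, against 9.1% of all regions). At day 5 it was higher with all summits (17 of 40, against 36.9%) and with merging at 100 bp (2 of 7, against 13.2%). Under the remaining settings of N, merging and absence it stayed lower. At day 3, N being 53456 summits per library, 2 of 44 reproducible member regions were KO-only (4.55%, against 9.77% of all 52273) and 4 were control-only (9.09%, against 9.57%). The KO-only regions were the Dll1 region and one 64685 bp from Hey2 (chromosome 10, 30907429 to 30907508), which ranked at 87.9% and 69.8% of the N best. The same site of Dll1 also gave a control-only region, so it entered both counts. In all 4 libraries were 63.6% of the member regions and 62% of all regions. Leaving out 1 library asks for fewer libraries per group. Without KO replicate 1, 5 of 50 were KO-only and 7 control-only, and without KO replicate 2 the same counts were of 51. Without iHA-Foxk1 replicate 1, 3 of 51 were KO-only and 9 control-only. Without iHA-Foxk1 replicate 2, 5 of 54 were KO-only and 9 control-only. The shares of all regions then ran from 13.1% to 18.6% KO-only and from 11.5% to 19.8% control-only.

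At day 5, N being 14519, 0 of 11 member regions were KO-only, against 12.1% of all regions, and 1 was control-only (9.09%, against 7.97%). Only 3 of the 11 were in all 4 libraries (27.3%, against 57.6% of all regions). Of the 8 others, 6 were in both KO libraries and iHA-Foxk1 replicate 2 but not in iHA-Foxk1 replicate 1: 2 at Hes1 and 1 each at Notch1, Dll4, Jag1 and Hey1. At Jag1 and Hey1, iHA-Foxk1 replicate 1 did have summits within 1 kb of the gene end, the best at 61.9% and 64.4%. They lay too far from the other summits to be merged with them. Without that library N was 34040, and 8 of 41 member regions were KO-only (19.9% of all regions) and 13 control-only (27.6%). Without iHA-Foxk1 replicate 2, 6 and 5 of 15 were called, against 22.3% and 28.3% of all regions.

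At day 10, N being 4028, there were 5 reproducible member regions, 3 at Rbpj and those at the ends of Hey2 and Hey1. One was KO-only (9.88% of all regions) and 2 control-only (11.8% of all regions). With 2 libraries against 2 no exact permutation p under 0.33 is possible, and no test was made within a day. Without KO replicate 1, 3 of 8 member regions were KO-only (23.3% of all regions), and without KO replicate 2, 2 of 6 were (26.1%).

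**Figure D4:**
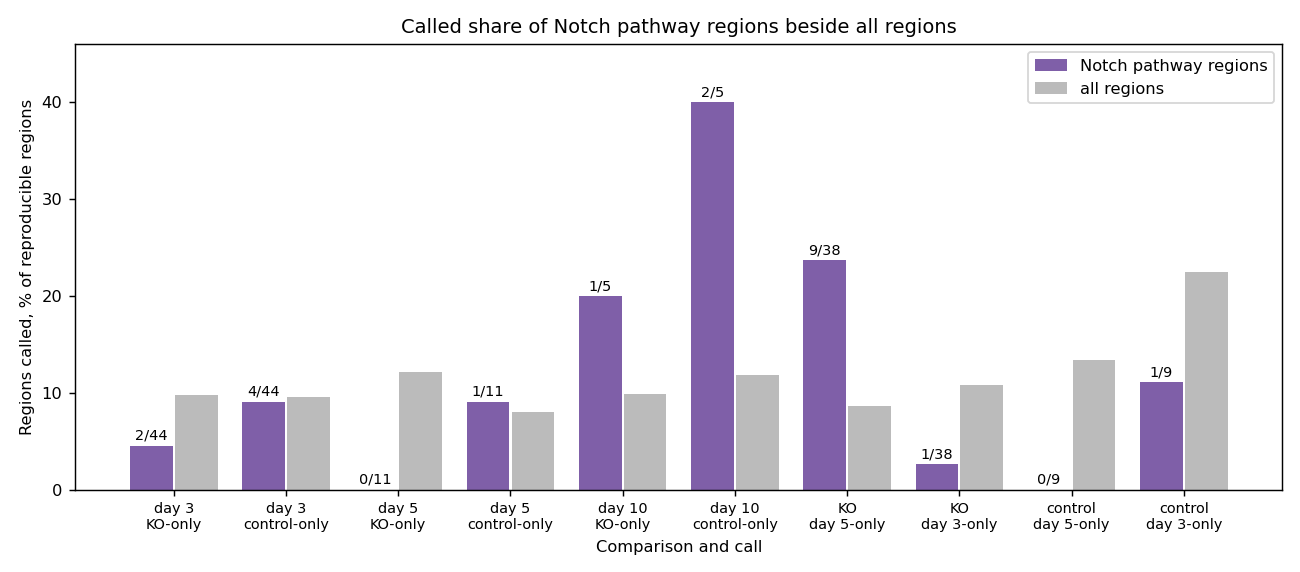
Percentage of reproducible regions called in each comparison, for regions of the 10 genes (purple) and for all regions (grey), with the number called of the number reproducible above the purple bars. The purple bars of day 10 rest on 5 regions, and in KO the day 5-only share was 23.7% against 8.59% of all regions.

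The number of summits per gene was tested over the 3 days, with genotype labels permuted within days. No gene of 18855 passed (two-sided exact permutation test, Benjamini-Hochberg adjusted p = 1 for every gene, smallest p of the design 0.00926), and 47 genes (0.249%) were below 0.05 before adjustment. None of the 10 Notch genes was among them. Over 18855 genes a p of 0.00926 cannot pass adjustment unless very many genes reach it together. The adjusted result therefore draws no line for single genes, whatever their difference. The difference, KO minus control in summits per library averaged over days, was −1 for Hes1 (exact permutation p = 0.33), −0.5 for Jag1 (exact permutation p = 0.667), −0.33 for Rbpj (exact permutation p = 0.75) and 0.33 for Notch1 (exact permutation p = 0.667), and lay between −0.167 and 0.167 for the others. These signs depended on the setting: with all summits the difference was 0.833 for Hes1 and 2.67 for Rbpj, with N divided by 2 it was 0.667 for Hes1, and without iHA-Foxk1 day 5 replicate 1 it was 0.667 for Rbpj. Without iHA-Foxk1 day 3 replicate 1 it was −0.167 for Notch1, and without day 3 it was 0.25 for Jag1 and for Rbpj. Groups did not overlap for 2 genes at day 3, both lower in KO. They were Hes1 (9 and 7 in KO against 12 and 10 in iHA-Foxk1 among the N best) and Rbpj (8 and 7 against 9 and 9), where 8.93% of all genes were lower and 9.51% higher in KO without overlap. At day 10 Hey2 alone was lower without overlap (0 and 0 in KO against 1 and 1 in Control), as were 7.87% of all genes, while 5.24% were higher. At day 5 no Notch gene was in either direction, against 5.87% of all genes higher and 6.88% lower in KO.

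Between days, more regions of these genes were found at day 5 alone than at day 3 alone in KO. No test was made at 2 libraries against 2. Of 38 reproducible member regions at N of 42129, 9 (23.7%) were found in both KO libraries of day 5 and neither of day 3, against 8.59% of all 41699 regions, and 1 (2.63%) was day 3-only, against 10.8%. The day 5-only regions were 3 at Rbpj, 2 at Notch1 and 1 each at Hes1, Dll1, Jag1 and Hey1. Those of Notch1 lay 17336 bp inside the gene from its nearer end (chromosome 2, 26475210 to 26475267) and 21989 bp outside it (26525690 to 26525932), and iHA-Foxk1 replicate 2 of day 5 had a summit in both. The Hey1 region, 27774 bp from the gene (chromosome 3, 8635540 to 8635631), was likewise found in iHA-Foxk1 replicate 2 of day 5. None of the 9 was within 1 kb of a gene end, and they ranked between 62.3% and 90.5% on average. Full day 3 lists, with summits of any score, held summits within 125 bp of those at Hes1 and Dll1. With absence judged on those lists, 7 of the 38 regions were day 5-only, against 5.47% of all regions. With N divided by 2, 4 of 16 were day 5-only, against 7.32% of all regions. Without KO replicate 1 of day 5 there were 19 of 51, against 19.5% of all regions. Without replicate 2 there were 20 of 56, against 21%. The labels say day 5 and the peak names day 7 for these libraries.

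In the control arm the same comparison was limited by the list of 14519 summits. There, none of 9 member regions was day 5-only (13.4% of all 15158 regions) and 1, at Jag1, was day 3-only (22.5%). Without iHA-Foxk1 replicate 1 of day 5, 16 of 42 were day 5-only, against 31.1% of all regions, and 9 day 3-only, against 24.5%. Without replicate 2 of day 5 there were 5 and 5 of 14, against 32% and 25.9%. Without replicate 1 of day 3, 2 of 10 were day 3-only, and without replicate 2 of day 3, 2 of 11 were, against 28.8% of all regions each time. In the last case 1 was day 5-only, against 14.9% of all regions. Whether KO and control differed in this change over days was not tested.

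Other genes of the pathway were described from a list of 47, among them further receptors and ligands, the Fringe glycosyltransferases that modify Notch, the Mastermind coactivators that bind the RBPJ complex, the proteases that cleave the receptor and the ubiquitin ligases that regulate its turnover. At day 3 all 47 had a reproducible region. Of 156 regions, 7 were KO-only (4.49%, against 9.77% of all regions), among them regions at Maml3, a Mastermind coactivator, Psen2, a catalytic subunit of gamma-secretase, Dtx1, a Deltex regulator, and Neurl1b. Another 13 were control-only (8.33%, against 9.57%), led by Maml2, Kat2b, an acetyltransferase, Dtx4, Itch, a ubiquitin ligase, and Rbpjl. At day 5, 2 of 44 regions were KO-only (4.55%, against 12.1% of all regions, at Maml3 and Dtx4) and 5 control-only (11.4%, against 7.97%, among them regions at Maml3, Neurl1a, Dlk1 and Mib1). The KO-only region of Maml3, 101721 bp inside the gene from its nearer end at day 3, was at the same place on both days (chromosome 3, 51788917 to 51789165 at day 3 and 51789055 to 51789122 at day 5). At day 10 none of 12 regions was called in either direction, against 9.88% of all regions KO-only and 11.8% control-only.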

How the data were processed

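The authors deposited 1 list of peak summits per library. Per the submitters' processing notes the tools were Bowtie2 2.2.4 and MACS2, without a version, on mm10. Deposited scores are on the −log10 scale; whether they stand for p-values or q-values was not stated, and they served only to rank summits within a list. Replicates were not pooled. The lists hold no read counts, so read depth is unknown.

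Summits on chromosomes 1 to 19 and X were assigned with a RefSeq gene table of GRCm38.p6 (21631 protein-coding genes). The planned use of gene starts was replaced by gene ends, since strand was known for only some genes. Per comparison each list was cut to its N best summits, N being the shortest list, and summits were merged at 250 bp. Called regions had a summit in both libraries of 1 group and in neither of the other. Tests were exact permutations (Python 3.11.15, numpy 2.4.6, pandas 2.3.3), and the calling and testing code was tested on simulated data. The 10 genes and the further list were chosen with earlier results of these data known. All 10 genes and all their regions called between genotypes were named, and of the further list at most 5 genes per day and direction, by best mean rank; an item of that list is not reported here. No list of artefact-prone regions was applied. Alternatives changed N, the merging distance, how absence was judged, and the libraries and days used.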

Additional observations from a re-analysis of the deposited data

How the results depend on the processing

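Of the 10 calls between genotypes, those at the Hey2 start (day 10) and 94771 bp from Jag1 (day 3) held under all 5 other settings. Leaving out a library only loosens the call rule, so it does not test single calls. Counts of called member regions moved as follows. With all summits, KO-only regions numbered 17 of 40 at day 5 (36.9% of all regions) and 0 of 7 at day 10 (1.65%), and day 3-only regions 4 of 46 in KO (17.2%) and 20 of 39 in control (48%). For the further pathway list 22 of 129 were then KO-only and 3 control-only at day 5 (36.9% and 2% of all regions). At day 10, 12 of 28 were control-only (35%). The cause was not tested. With N divided by 2, 4 of 19 regions were KO-only at day 3 (9.1% of all regions) and 1 was control-only (9.13%). At day 10, 0 of 1 was KO-only (13.2%) and 1 control-only (13.1%). In KO 4 of 16 were day 5-only (7.32%) and 0 day 3-only (8.64%), and in control 0 of 5 were day 3-only (18.5%). Merging at 100 bp gave 4 of 39 KO-only at day 3 (12% of all regions) and 2 of 7 KO-only at day 5 (13.2%). In control it gave 2 of 8 day 3-only (25.6%). Judging absence on full lists gave 0 of 5 KO-only at day 10 (2.42% of all regions). Judged within 1 kb, 1 of 44 was KO-only (8.4%) and 2 control-only (7.67%) at day 3, and 0 of 11 control-only at day 5 (1.16%). At day 10, 0 of 5 were then KO-only (1.13%) and 1 control-only (9.25%), and in control 0 of 9 were day 3-only (14.6%). The judging of absence between days was added after the data were seen. There 7 (full lists, 5.47% of all regions) and 6 (within 1 kb, 4.37%) of 38 regions were day 5-only in KO.

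Leaving out 1 library, KO-only regions of day 3 numbered 3 to 5 (13.1% to 18.6% of all regions) and control-only ones 7 to 9 (11.5% to 19.8%), of 50 to 54. At day 5 they numbered 0 to 8 (18.1% to 22.3%) and 1 to 13 (8.69% to 28.3%), of 11 to 41. At day 10 they numbered 1 to 3 (12.2% to 26.1%) and 2 to 2 (15.6% to 23.4%), of 5 to 8. Between days, leaving out 1 library gave 10 to 20 day 5-only (10.2% to 21% of all regions) and 3 to 6 day 3-only (14.5% to 17.7%) in KO, of 43 to 56. In control it gave 0 to 16 (14.9% to 32%) and 2 to 9 (24.5% to 28.8%), of 10 to 42. The share of promoters with the RBPJ core was 21.6% for TGGGAA and, in a window of 300 bases added later, 6.38%. Same-numbered libraries were not known to be paired, and their replicate differences correlated at −0.0335, −0.0229 and −0.0368 across genes at days 3, 5 and 10. With the replicate number as a block, 0 genes passed in the test of summits per gene (exact permutation, 64 arrangements, smallest p 0.0312), as in all 18 alternatives. The smallest p was too high for a gene to pass alone in any of the 18 alternatives, so these results do not show stability. Of the 10 genes only Rbpj was below 0.05 before adjustment under any of them (N divided by 2, −1 summit, exact permutation p = 0.0278, adjusted p = 1). Designs without a day cannot go below 0.0556. The short lists of day 10 limit all statements on absence there.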
